A study of Homo sapiens with 6 samples.

Results

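The genes that build autophagosomes and the lysosomal LAMTOR-mTORC1 signalling hub were examined as RNA targets of IGF2BP3 in 41 human genes. The genes were named by function, and their members in the data were the crosslinked clusters of the 5 IGF2BP3 libraries that shared 1 nt or more with an exon of 1 of these genes in GENCODE release 44, strand included. This gave 647 of 244620 clusters and 15079 cluster reads, on 33 of the 41 genes. The remaining 8 genes had no cluster in any library. The 41 genes were chosen with earlier results of these data known.

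The data came from infrared PAR-CLIP, in which cells take up 4-thiouridine, UV light crosslinks the labeled RNA to the bound protein, the complex is immunoprecipitated and the trimmed RNA is sequenced. A crosslinked 4-thiouridine is read as C instead of T, and PARalyzer groups reads with such conversions into clusters. All libraries were made from HCT116, a human colorectal carcinoma line of genotype Tet-OsTIR1-PURO that conditionally expresses the plant F-box protein OsTIR1, labeled with 100 µM 4-thiouridine for 15 h and irradiated at 365 nm. IGF2BP3, an RNA-binding protein of oncofetal expression, was precipitated with a Proteintech antibody after RNase I at 0.05/0.05, 0.1/0.025 or 0.05/0.025 U/µL (in-lysate/on-beads) or after RNase T1 at 1/1 or 0.25/0.25 U/µL. The authors found that this antibody partially recognizes the paralog IGF2BP2, whose clusters cannot be told apart from those of IGF2BP3. A library with IgG as the control antibody had been digested with RNase I at 0.1/0.025 U/µL. Each condition was a single library, so the values below are descriptions of these libraries and no difference was tested. The 95% intervals cover counting error only. RNA from the RNase I 0.05/0.05 and RNase T1 1/1 libraries was electroeluted from the gel and that of the others was recovered from crushed gel, so that the concentrations of these libraries and the gel extraction cannot be told apart from each other. RNase I 0.1/0.025 and 0.05/0.025 shared the gel extraction and the on-beads concentration and differed in the in-lysate concentration.

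In macroautophagy, the ULK kinase complex and the class III phosphatidylinositol 3-kinase complex with Beclin 1 start a membrane that grows with lipid delivered by ATG2 and ATG9, while the enzymes ATG7, ATG3, ATG10 and the ATG12-ATG5-ATG16L1 complex attach ubiquitin-like proteins of the LC3 and GABARAP families to its lipids. Receptors such as p62 (SQSTM1) bind these proteins and carry cargo into the autophagosome. The Ragulator complex, formed by the LAMTOR proteins, anchors the Rag GTPases to the lysosome, where they recruit mTORC1 when amino acids are present, and mTORC1 in turn restrains the ULK complex and the transcription factor TFEB.

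RNase T1 cuts after G, while RNase I cuts after any base, and short RNase T1 clusters show what was measured. The following 6 are whole clusters of at most 30 bases that were the strongest of their gene in a library, all within the canonical 3′UTR, written 5′ to 3′ as in GRCh38, with every G in capitals.
BECN1, RNase T1 1/1, chr17:42810575-42810602, minus strand, 96 reads: GacaGatactttccaGaGctacaacatG
BECN1, RNase T1 0.25/0.25, chr17:42810575-42810601, minus strand, 23 reads: acaGatactttccaGaGctacaacatG
ATG5, RNase T1 0.25/0.25, chr6:106186027-106186049, minus strand, 9 reads: aGtaaacccatctttccttaacG
GABARAPL1, RNase T1 0.25/0.25, chr12:10222982-10223005, plus strand, 6 reads: acatGacatttcaattcatctctG
GABARAPL2, RNase T1 0.25/0.25, chr16:75577785-75577808, plus strand, 5 reads: atGccaactGccaatcatGttGGa
WIPI2, RNase T1 0.25/0.25, chr7:5231945-5231967, plus strand, 5 reads: GtGcctttctattttcatcttaG
Of these sequences, 5 end in G, and both BECN1 clusters end at the same base. Among all member clusters the last base was G in 96.03% of 151 clusters with RNase T1 1/1 and in 94.6% of 37 with RNase T1 0.25/0.25, and in 18.6%, 13.8% and 20.7% with RNase I 0.05/0.05, 0.1/0.025 and 0.05/0.025. Over all protein-coding genes the shares were 94.8% and 92.05% with RNase T1 and between 12.1% and 13.3% with RNase I.

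The cluster reads summed to 2362467, 803490 and 670712 in the RNase I 0.05/0.05, 0.1/0.025 and 0.05/0.025 libraries and to 1157194 and 182448 in the RNase T1 1/1 and 0.25/0.25 libraries. The 41 genes held between 2373 and 3171 CPM, that is, counts per 1e6 cluster reads, in each library. The IgG library had 324 reads in 25 clusters, and 0 of them lay on a member. With so few clusters in that library, this 0 says little about the background on the members. Reads were compared as CPM, and levels of different genes as CPM per kb of the canonical transcript. RNA abundance was not measured, so CPM reflect the amount of a transcript and its occupancy together and are not binding per transcript. A gene was called a target in a library when at least 1 cluster had more than 10 CPM and more than 0.5 conversion events per read. At 10 CPM a cluster had 23.6, 8.03, 6.71, 11.6 and 1.82 reads in the order RNase I 0.05/0.05, 0.1/0.025, 0.05/0.025, RNase T1 1/1 and 0.25/0.25. Values are given in this order throughout unless a library is named.

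Members were called targets more often than protein-coding genes in general in every library. With RNase I 0.05/0.05, 21 of 41 members were called (51.2%, Wilson interval 36.5% to 65.7%), against 21.9% of 20046 protein-coding genes. With RNase I 0.1/0.025 there were 21 calls, against a background of 21.3%. With RNase I 0.05/0.025 there were 20 calls, against 22%. With RNase T1 1/1, 18 members were called, against 19.6%, and with RNase T1 0.25/0.25, 11 members, against 13.7%. At least 1 library called 24 members (58.5%), against 29.5% of protein-coding genes, and all 5 libraries called 10 members (24.4%), against 9.91%. Part of this lay in the detection of clusters. Any cluster was found for 31, 24, 22, 29 and 13 members, that is, 75.6%, 58.5%, 53.7%, 70.7% and 31.7%. Over protein-coding genes these shares were 43.7%, 32.0%, 30.3%, 37.6% and 16.7%. Of the members with a cluster, 67.7%, 87.5%, 90.9%, 62.1% and 84.6% met the criteria, against 50.1%, 66.5%, 72.6%, 52.2% and 82% of the protein-coding genes with a cluster. The background covered all annotated protein-coding genes, expressed or not, and the difference was not tested. The members were chosen with earlier results of these data known, so the excess of calls cannot be told apart from that choice. In the RNase T1 0.25/0.25 library, where 10 CPM is below the smallest cluster, 5 of the 11 calls rested on a cluster of at least 10 reads, and in the others 21 of 21, 21 of 21, 16 of 20 and 18 of 18 did.

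Calls were unequally spread over the steps of the pathway. Of the 6 genes for LC3 and GABARAP proteins and the receptor p62, 5 were called in at least 1 library and 4 in all 5. Of the 9 conjugation genes, 5 were called in at least 1 library and 3 in all 5. In the ULK complex 3 of 5 genes were called in at least 1 library and 0 in all 5, and in the phosphatidylinositol 3-kinase complex 2 of 5 and 1. Among the genes for lipid transfer and for effectors of phosphatidylinositol 3-phosphate 3 of 5 were called in at least 1 library and 1 in all 5. Of the 7 Ragulator and Rag genes, 5 were called in at least 1 library and 1 in all 5, and of the 4 genes of mTORC1 and TFEB, 1 and 0. These groups are small, and their differences were not tested. In the plot of cluster reads by gene and library MAP1LC3B, SQSTM1 and ATG12 lie farthest to the right.

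**Figure D1:**
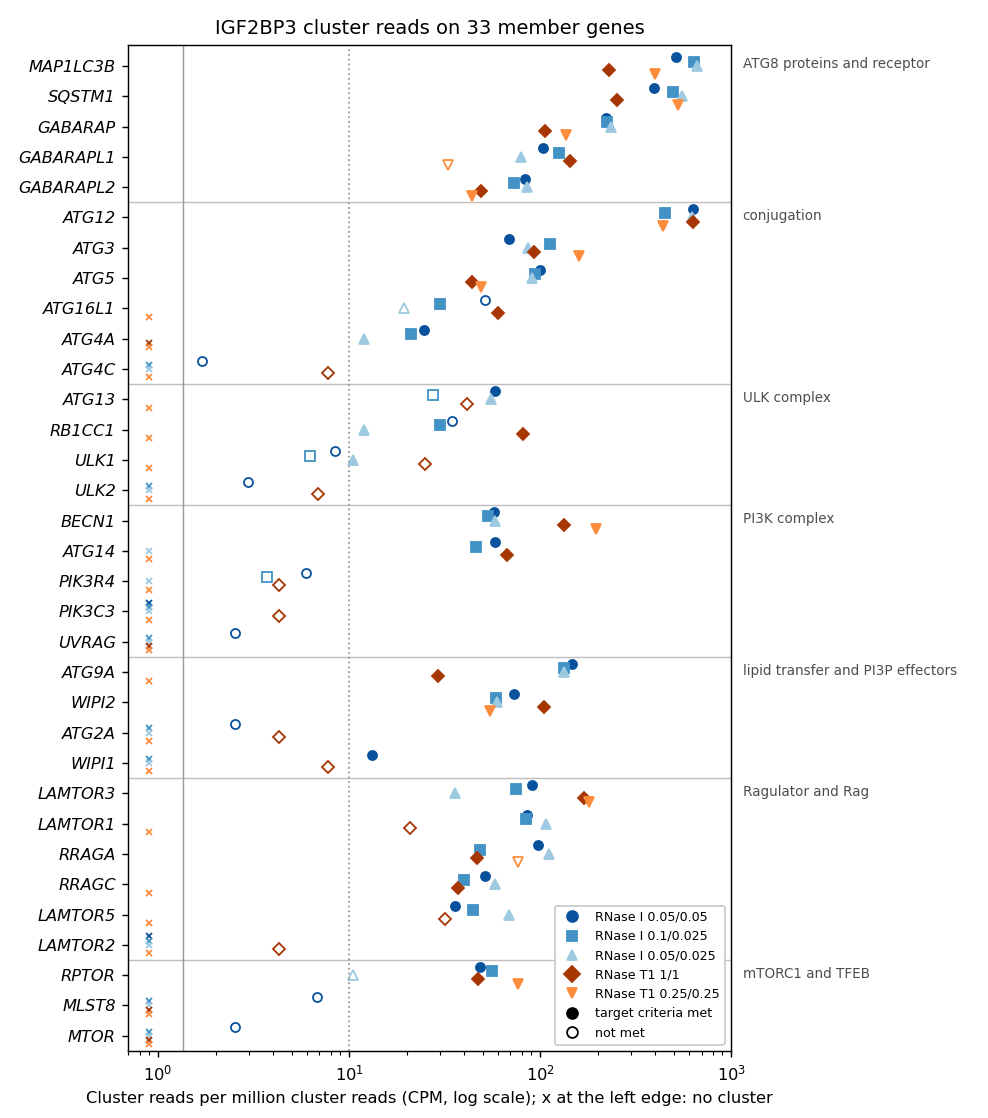
Cluster reads of the 33 members with a cluster in each of the 5 IGF2BP3 libraries, in CPM on a log axis, grouped by role; filled symbols mark libraries in which the gene met the target criteria, open symbols those in which it did not, crosses at the left edge libraries without a cluster, and the dotted line 10 CPM, which applies to single clusters. MAP1LC3B, SQSTM1 and ATG12 lie above 200 CPM in every library.

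Genes for LC3, p62 and GABARAP had the highest levels per transcript length. MAP1LC3B, which encodes the LC3B protein attached to the autophagosome membrane, had 512, 638, 662, 229 and 400.1 CPM. Its lowest value was that of RNase T1 1/1, and all 3 RNase I libraries lay above both RNase T1 libraries. Its median per length was 239 CPM per kb, the highest of the 41 genes. SQSTM1, the gene for the cargo receptor p62, had 392, 497, 555, 252 and 526 CPM, with overlapping ranges of the enzymes. Most of its reads lay from 252 to 674 nt of the 3′UTR, in a region present in all 5 libraries with 670, 313, 283, 242 and 86 reads, and a second region around the stop codon had 208, 76, 72, 46 and 10 reads. GABARAP had 221, 224, 236, 106 and 137 CPM, a narrow range with RNase I and lower values with RNase T1. GABARAPL2 showed the same order at a lower level, with 83.4, 73.4, 85.0, 49.3 and 43.8 CPM. GABARAPL1 had 104, 126, 79.0, 143 and 32.9 CPM, highest with RNase T1 1/1 and lowest with RNase T1 0.25/0.25, where its 6 reads had 0.333 conversion events per read and the gene was not called. MAP1LC3A had no cluster. The 3′UTR of MAP1LC3A has 450 nt and a G+C content of 65.8%, the highest of the 41 genes, and that of MAP1LC3B has 1680 nt and 39.2%.

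Within the 3′UTR of MAP1LC3B most reads fell into 2 regions that were found in all 5 libraries, from 15 to 670 nt and from 851 to 1547 nt after its start. Smaller sites lay from 726 to 838 nt, with RNase I alone, and from 1567 to 1653 nt, in 4 libraries. Positions in a 3′UTR are counted from 1 at the first base of the stop codon, where GENCODE begins the UTR. With RNase I 0.05/0.05 the strongest cluster was 695 nt long (chr16:87403945-87404639), held 818 reads and had 0.656 conversion events per read. With RNase T1 1/1 the strongest cluster lay inside it, was 87 nt long with 121 reads and had 0.397 events per read, below the criterion, so that the call rested on other clusters. In GABARAPL2 clusters covered 98.3% of the 515 nt of the 3′UTR with RNase I 0.05/0.05 and 37.1% with RNase T1 1/1. In GABARAP 1 region spanned the stop codon and the first 428 nt of the 3′UTR and held 501, 172, 148, 123 and 25 reads.

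ATG12, the ubiquitin-like protein that is joined to ATG5, was the conjugation gene with the most reads. It had 628, 451, 626, 633 and 438 CPM, with overlapping ranges of the enzymes. Its 3′UTR of 3607 nt contained 4 regions present in all 5 libraries, the largest from 1 to 951 nt with 848, 225, 263, 257 and 43 reads. The strongest cluster lay within the first 951 nt in all libraries except RNase T1 1/1, where it began at 2784 nt. ATG5 had 99.5, 94.6, 90.9, 44.1 and 49.3 CPM, and here too the RNase I libraries lay above those of RNase T1. ATG3, the enzyme that transfers LC3 to phosphatidylethanolamine, had 69.0, 113, 86.5, 93.3 and 159 CPM. In ATG3 a region from 13 to 185 nt of a 3′UTR of only 192 nt was found in all 5 libraries. With RNase T1 0.25/0.25 that region had 0.458 events per read, and ATG3 was called through a single cluster of 5 reads outside the canonical transcript, without which 9 genes remained called in all 5 libraries. ATG16L1, which directs the ATG12-ATG5 conjugate to the membrane, had 51.2, 29.9, 19.4, 60.5 and 0 CPM and was called in 2 libraries. ATG4C, a protease that processes LC3 proteins, had 4 reads with RNase I 0.05/0.05 and 9 with RNase T1 1/1, all in the coding sequence, and was never called. No cluster was listed for the protease ATG4B, for ATG7, the E1 enzyme of the cascade, or for ATG10, the E2 enzyme for ATG12.

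**Figure D2:**
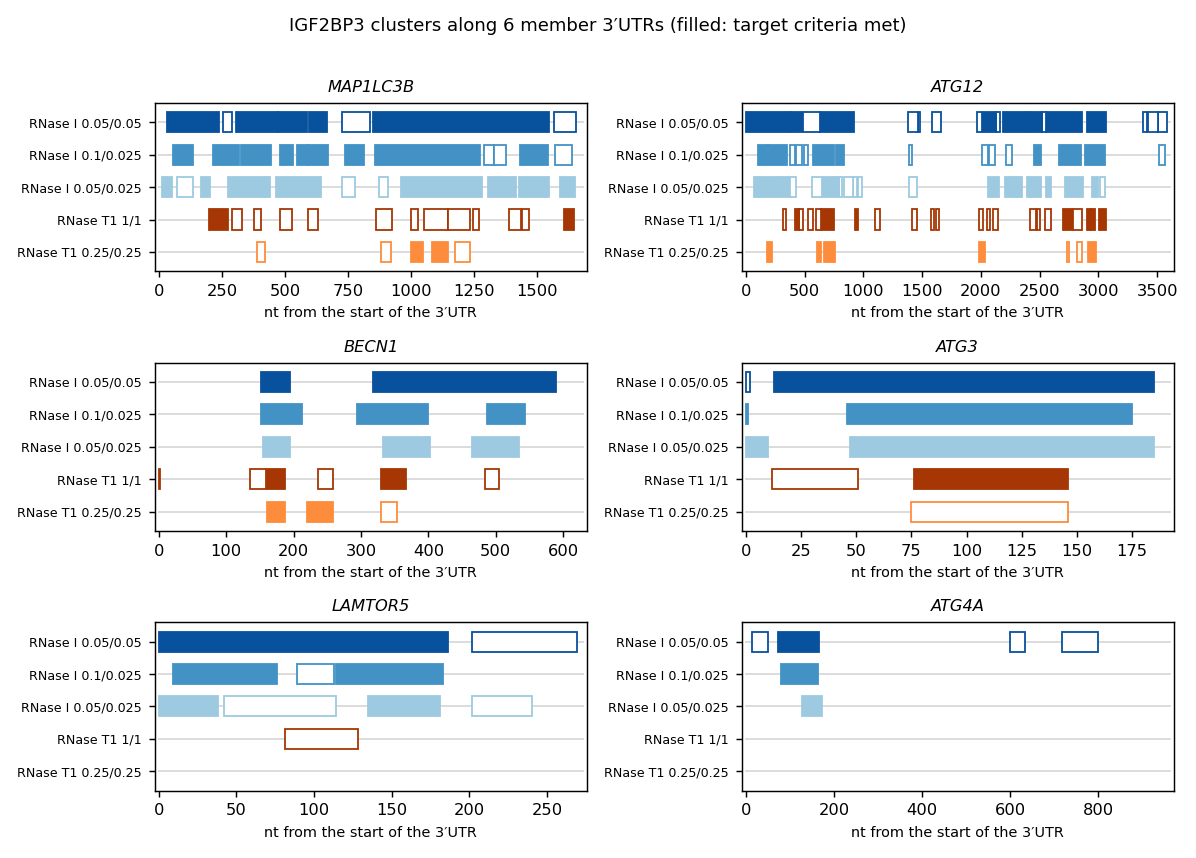
Clusters along the canonical 3′UTR of 6 members in the 5 IGF2BP3 libraries, with the distance from the first base of the stop codon in nt on the horizontal axis; filled bars are clusters that met the target criteria and open bars those that did not. RNase I clusters are long and often adjoin, RNase T1 clusters are shorter, and ATG4A has no RNase T1 cluster.

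The kinase complexes that start autophagy had low levels per transcript length, with medians of at most 9.77 CPM per kb except for BECN1 with 27.6 CPM per kb. BECN1, the Beclin 1 subunit of the phosphatidylinositol 3-kinase complex, had 57.6, 53.5, 58.1, 134 and 197 CPM. Both RNase T1 libraries lay above all 3 RNase I libraries, which differed little among each other. The ratio of RNase I 0.05/0.05 over RNase T1 1/1 was 0.430 (0.339 to 0.545). Of its sites found in all 5 libraries, the one with the most RNase T1 1/1 reads had 77 nt and lay from 137 to 213 nt of the 3′UTR (chr17:42810550-42810626). To it both printed BECN1 clusters belong. The site, chosen after its values were seen, had 22.4, 24.9, 22.4, 90.7 and 126 CPM, while the rest of the gene had 35.1, 28.6, 35.8, 43.2 and 71.3 CPM. It held between 38.5% and 46.5% of the BECN1 reads with RNase I, and 67.7% and 63.9% with RNase T1. A further BECN1 site, from 221 to 258 nt, was found in both RNase T1 libraries and in no RNase I library, with 9 and 5 reads, the only such site among the 227 sites of the members.

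ATG14, which directs the kinase complex to autophagy, had 57.99, 46.05, 0, 67.4 and 0 CPM and was called in the 3 libraries with clusters. At its median level of 57.99 CPM in the libraries that had clusters, 38.9 reads would correspond to the depth of the RNase I 0.05/0.025 library, where none was listed, and 10.6 to that of RNase T1 0.25/0.25. PIK3C3, the catalytic subunit, had a single cluster of 5 reads with RNase T1 1/1. PIK3R4, its regulatory subunit, had 14, 3, 0, 5 and 0 reads, and UVRAG had 6 reads in the RNase I 0.05/0.05 library alone. In the ULK complex, ATG13 had 58.4, 27.4, 55.2, 41.5 and 0 CPM and was called in 2 libraries, RB1CC1 (FIP200) had 34.7, 29.9, 11.9, 81.2 and 0 CPM and was called in 3, and the kinase ULK1 had 8.47, 6.22, 10.4, 25.1 and 0 CPM and was called in 1. ULK2 was never called, and ATG101 had no cluster. RB1CC1 with RNase I 0.05/0.05 was at the limit of the criteria, as its clusters above 10 CPM reached 0.500 events per read.

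ATG9A, the membrane protein of the vesicles that seed the autophagosome, differed from the other strongly covered members in where its reads lay. It had 146, 133, 133, 29.4 and 0 CPM, and of these reads only 21.7%, 32.7%, 10.1% and 0% fell in clusters that touched the 3′UTR of the canonical transcript in the 4 libraries with clusters. The strongest cluster lay in the coding sequence in each of these libraries, with RNase I 0.05/0.05 at chr2:219225075-219225204 with 59 reads. The ratio of RNase I 0.05/0.05 over RNase T1 1/1 was 4.97 (3.49 to 7.29), the highest among the 27 members with clusters in both libraries. In all, 17 of its 46 clusters, with 136 of 575 reads, also overlapped exons of another protein-coding gene (ENSG00000284820). WIPI2, which reads phosphatidylinositol 3-phosphate and recruits ATG16L1, had 73.2, 58.5, 59.6, 105 and 54.8 CPM and was called in every library, while its paralog WIPI1 had 13.1 CPM with RNase I 0.05/0.05 and 7.78 CPM with RNase T1 1/1 and was called in the first alone. Of the ATG2 lipid transfer proteins, ATG2A had 6 and 5 reads in the same 2 libraries and ATG2B had no cluster, although its 3′UTR has 6563 nt.

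Ragulator members split in how the enzymes captured them. LAMTOR3 had 91.0, 74.7, 35.8, 169 and 181 CPM, with both RNase T1 libraries above all RNase I libraries. Of its sites in all 5 libraries, the one with the most RNase T1 1/1 reads lay from 3 to 123 nt of the 3′UTR. That site had 30.1, 33.6, 10.4, 98.5 and 65.8 CPM, and the rest of the gene 61.0, 41.1, 25.3, 70.9 and 115 CPM. It was not chosen independently of these values. The site held 58.2% of the LAMTOR3 reads with RNase T1 1/1. With RNase T1 0.25/0.25 it held 36.4%, which lay within the range of the RNase I libraries. LAMTOR1, the subunit that anchors Ragulator to the lysosome by its lipid tail, had 85.1, 84.6, 107, 20.7 and 0 CPM, with every RNase I library above both RNase T1 libraries. The ratio of RNase I 0.05/0.05 over RNase T1 1/1 was 4.10 (2.68 to 6.55). LAMTOR5 had 36.0, 44.8, 68.6, 32.0 and 0 CPM. LAMTOR2 had 1 cluster of 5 reads with RNase T1 1/1, and LAMTOR4 had none. The 3′UTRs of LAMTOR2 and LAMTOR4 have 138 and 242 nt and are among the shortest of the 41 genes. That of ATG3, called in all 5 libraries, has 192 nt, and a link of clusters to length was not tested. Of the GTPases held by Ragulator, RRAGA had 96.9, 48.5, 112, 46.7 and 76.7 CPM and RRAGC 51.6, 39.8, 58.1, 37.2 and 0 CPM, both called in all libraries except RNase T1 0.25/0.25. The strongest RRAGC clusters with RNase I had 1.24, 1.19 and 1.11 conversion events per read, so that reads carried more than 1 conversion on average.

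The mTORC1 kinase itself was nearly without clusters. MTOR had 6 reads and MLST8 16 reads, both in the RNase I 0.05/0.05 library alone, and TFEB, the transcription factor of lysosomal genes, had none. RPTOR, the subunit that binds the Rag GTPases, had 48.3, 56.0, 10.4, 47.5 and 76.7 CPM and was called in every library except RNase I 0.05/0.025, where its 7 reads had 0.429 events per read.

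For 3 members the calls followed the enzyme, as ATG4A, LAMTOR1 and LAMTOR5 were called in all 3 RNase I libraries and in neither RNase T1 library. This was seen in 435 of the 20046 protein-coding genes. The opposite pattern was found in 0 members and in 49 protein-coding genes. The 3 members missed the criteria with RNase T1 1/1 at different points. ATG4A, a protease acting on LC3 and GABARAP proteins, had 24.6, 21.2 and 11.9 CPM with RNase I and no RNase T1 cluster, where its median RNase I level would correspond to 24.5 reads at the depth of RNase T1 1/1 and 3.86 at that of RNase T1 0.25/0.25. The strongest LAMTOR1 cluster had 10 reads and 8.64 CPM with 0.3 events per read, below both limits. LAMTOR5 had 1 cluster of 37 reads and 32.0 CPM with 0.297 events per read, so that the level passed and the conversions did not. In the RNase T1 0.25/0.25 library LAMTOR1 and LAMTOR5 would have 15.5 and 7.37 reads at their median levels, and no cluster was listed. The windows of 30 bases around the mode of the strongest cluster, the position of the densest crosslink signal, are shown for LAMTOR1 and LAMTOR5. They come from 1 RNase I library each, with every G in capitals, and are genome sequence that can run past the cluster. The LAMTOR1 cluster spans chr11:72097694-72097819, so part of its printed window, with some of the G, lies outside the cluster.
LAMTOR1, RNase I 0.05/0.025, chr11:72097680-72097709, minus strand: aGaGaaaaatGtGaaGaaGGaGGaGaaGaG
LAMTOR5, RNase I 0.05/0.05, chr1:110401346-110401375, minus strand: tctaatGctctatGGaccGactatcaaGat
The LAMTOR1 window had 12 G in 30 bases and the LAMTOR5 window 5. In the RNase I 0.05/0.05, 0.1/0.025 and 0.05/0.025 libraries the windows of LAMTOR1 had 11, 8 and 12 G and those of LAMTOR5 5, 6 and 6. The windows of ATG4A, the member without an RNase T1 cluster, had 1, 5 and 2 G. A link between G content and the calls was not tested.

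Members differed in both directions between the enzymes. The median log2 ratio of RNase I 0.05/0.05 over RNase T1 1/1, with 1 CPM added to each value, was 0.17 over 33 members, 18 of them above 0, with quartiles of -0.59 and 1.05, and 0.17 over 9198 protein-coding genes. For RNase I 0.1/0.025 and 0.05/0.025 over RNase T1 1/1 the medians were -0.34 and -0.83 over 30 members, against -0.42 and -0.59 over protein-coding genes. Over RNase T1 0.25/0.25 the median was 1.41 with RNase I 0.1/0.025 and 0.90 with RNase I 0.05/0.025, against 2.02 and 1.44 over protein-coding genes. In these pairs many genes without a cluster in the shallowest library enter at 0 CPM. Among the 13 members with clusters in all 5 libraries, every RNase I value lay above both RNase T1 values in 4 (MAP1LC3B, GABARAP, GABARAPL2 and ATG5), which is 30.8% against a background of 19.2% of 3162 genes. The reverse held for BECN1 and LAMTOR3, 15.4% against 17.6%. In the other 7 the ranges of the enzymes overlapped. Counts of 4 and 2 in 13 members are too small to set apart from these backgrounds. Between libraries the CPM of the members ranked alike, with Spearman's rho from 0.84 to 0.95 between RNase I libraries over 24 to 31 members, 0.81 between the RNase T1 libraries over 29 members, and 0.51 to 0.81 between enzymes over 22 to 33 members. These values describe genes that share length and abundance across libraries. Of the member reads, ATG12, MAP1LC3B, SQSTM1 and GABARAP held between 49.0% and 65.5% in each library.

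**Figure D3:**
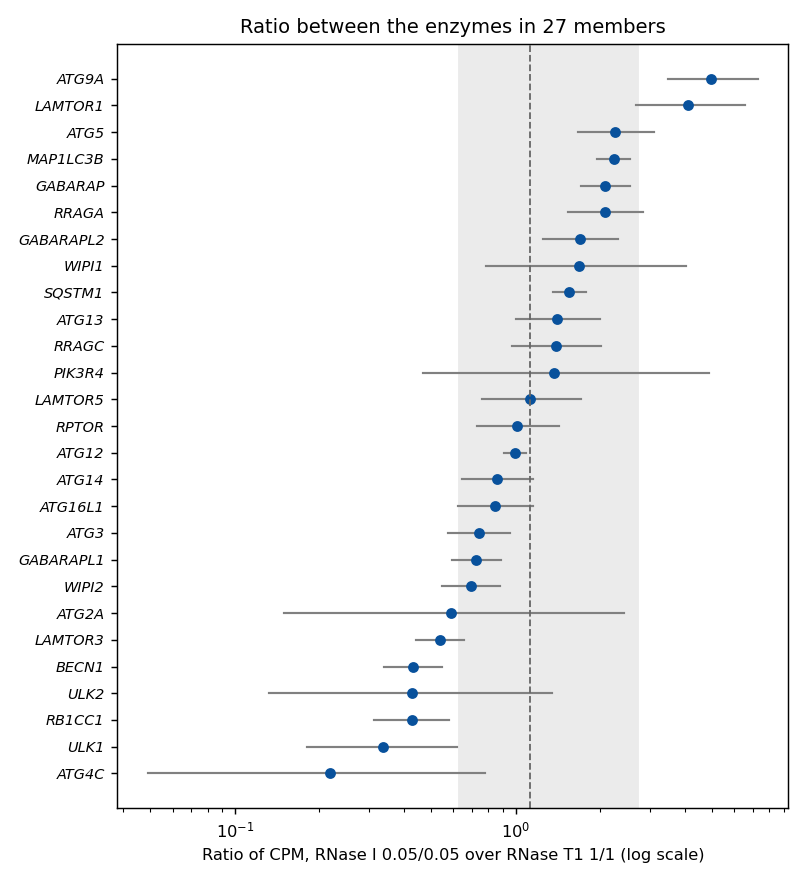
Ratio of CPM with RNase I 0.05/0.05 over RNase T1 1/1 on a log axis for the 27 members with clusters in both libraries, with exact 95% binomial intervals of counting error as lines; the dashed line and shaded band are the median and the quartiles of log2 ratios over 9198 protein-coding genes with 1 CPM added. ATG9A and LAMTOR1 lie at 4.97 and 4.10, and BECN1 and LAMTOR3 at 0.430 and 0.537.

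RNase I 0.05/0.05 clusters covered wider stretches than those of RNase T1. With RNase I 0.05/0.05 clusters covered more of the canonical 3′UTR than with RNase T1 1/1 in 22 of 22 members that had clusters there in both, with medians of 47.8% and 14.5%, as the scatter plot of coverage shows. This was so in 94.7% of 6296 protein-coding genes, with medians of 26.7% and 8.34%. The gap was widest in LAMTOR5, at 92.7% and 17.2%, followed by GABARAPL2 at 98.3% and 37.1% and MAP1LC3B at 88.5% and 37.9%. Member clusters had a median length of 60.5, 61, 55.5, 36 and 37 nt. The other RNase I libraries had fewer cluster reads. With RNase I 0.1/0.025 coverage exceeded that of RNase T1 1/1 in 15 of 22 members, against 69.5% of protein-coding genes. With RNase I 0.05/0.025 it did so in 11 of 20 members, against 60.0%. Compared with RNase T1 0.25/0.25, it was broader in 13 of 13 and 12 of 13 members with these libraries, against 98.2% and 97.2%. RNase T1 0.25/0.25 had the fewest cluster reads.

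**Figure D4:**
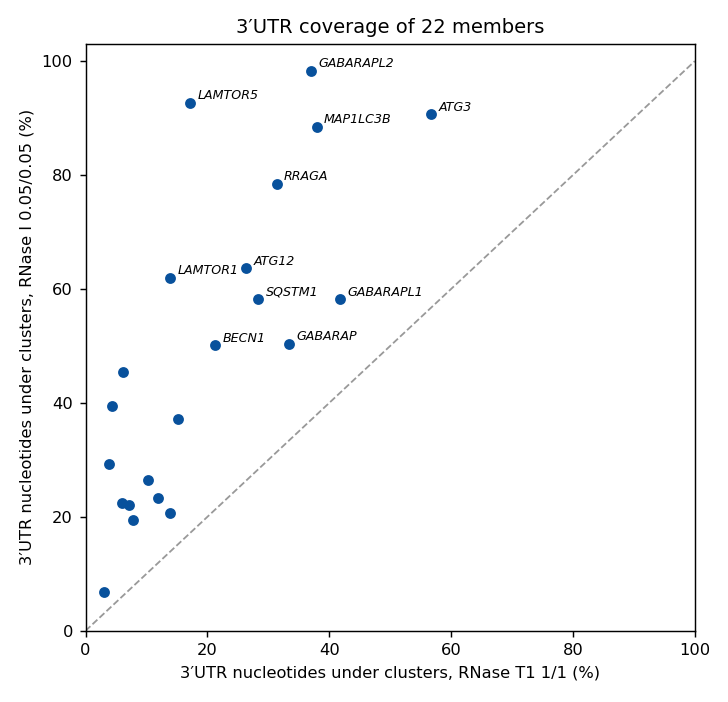
Share of the nucleotides of the canonical 3′UTR under clusters with RNase T1 1/1 (horizontal) and RNase I 0.05/0.05 (vertical), in percent, for the 22 members with 3′UTR clusters in both libraries; the dashed line marks equal coverage. All 22 points lie above the line.

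The strongest cluster of a gene often lay at different positions in different libraries. Between RNase I 0.05/0.05 and RNase T1 1/1 the strongest clusters overlapped in 11 of 27 members (40.7%), as in 41.4% of 7106 protein-coding genes. Between RNase I 0.05/0.05 and the other RNase I libraries they overlapped in 17 of 24 and 16 of 22 members, against 65.6% and 62.8% of genes, and between those other libraries in 12 of 22, against 59.5%. The RNase T1 libraries overlapped with each other in 6 of 13 members, against 52.4%. With RNase T1 0.25/0.25 the RNase I libraries overlapped in 6, 8 and 7 of 13 members, against 56.9%, 51.7% and 50.0% of genes. With RNase T1 1/1, RNase I 0.1/0.025 overlapped in 10 of 23 members, against 38.4%, and RNase I 0.05/0.025 in 10 of 21, against 36.2%. When the clusters of all libraries were merged into 227 sites, 20 sites were found in all 5 libraries and 120 in 1 library. Sites seen with both enzymes numbered 72, those seen with RNase I alone 128 and those with RNase T1 alone 27. RNase I had 3 libraries and RNase T1 2, of unequal cluster reads, and shares over protein-coding genes are not given for such sites. The site counts therefore describe the members and do not compare the enzymes. ATG12 had 4 of the 20 sites found in all libraries, and ATG3, BECN1, LAMTOR3, MAP1LC3B and SQSTM1 had 2 each. Of 220 member clusters with RNase I 0.05/0.05, 39.1% overlapped an RNase T1 1/1 cluster of the gene, against 38.1% over protein-coding genes. Those 86 had a median of 31.5 reads, 93.5 nt, 18.1% G and a longest stretch without G of 18.5 nt, and the other 134 had medians of 7 reads, 52 nt, 20.5% G and 12 nt. Read number and length differed along with G content, and their separate parts were not tested. Over all protein-coding genes the medians of G were 16.7% and 20.0%.

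Most reads of the members lay in 3′UTRs, in a share that depended on how clusters touching coding sequence were counted. When a cluster that touched the 3′UTR of any GENCODE transcript of the gene was counted there, the share of member reads was 95.02%, 96.3%, 96.7%, 95.3% and 100.0%, against 86.1%, 88.0%, 87.1%, 90.7% and 91.3% over protein-coding genes. Some exons are coding in one transcript and 3′UTR in another. With the features of the canonical transcript alone the shares of the members were 91.1%, 93.0%, 92.9%, 93.8% and 98.8%, and those of protein-coding genes 78.9%, 80.7%, 79.4%, 85.3% and 85.7%. When coding sequence was assigned before the 3′UTR, the member shares were 72.5%, 88.7%, 89.6%, 93.7% and 97.7%. Those of protein-coding genes were then 68.6%, 74.8%, 72.2%, 85.5% and 84.1%, so that with RNase I 0.05/0.05 the values lay close together. Of the member clusters, 0 were assigned to a 5′UTR. ATG9A held the most member reads outside the canonical 3′UTR in each RNase I library, with 270, 72 and 80, and ATG3 in each RNase T1 library, with 36 and 5. The few reads of ATG2A, ATG4C, ULK2, LAMTOR2 and MLST8 lay in coding sequence in every library with a cluster, none of these 5 genes being called.

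Members called in all 5 libraries had the lowest median G+C content in the 3′UTR and those without a cluster the highest. The 10 members called in all 5 libraries had a median 3′UTR of 1584 nt with 35.7% G+C, the 14 called in 1 to 4 libraries 1301 nt with 43.8%, the 9 with clusters but no call 953 nt with 43.4%, and the 8 without a cluster 1110 nt with 57.2%. The ranges of G+C overlapped, at 28.1% to 52.8% in the first and 39.6% to 65.8% in the last of these sets, and SQSTM1 and WIPI2 were called in all libraries at 52.8% and 51.4%. Over protein-coding genes the medians of G+C in the same 4 sets were 38.4%, 41.1%, 43.9% and 43.3%, and those of length 2264, 1568, 1249 and 645 nt.

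With RNase I 0.05/0.05 the tetramers CATT and CAGT, which the study discusses for IGF2BP3, and a pair of further tetramers had similar shares in member clusters and over all protein-coding genes. They were searched on the strand of the RNA, each by itself, in the 220 member clusters and the 73961 clusters of protein-coding genes with RNase I 0.05/0.05. CATT occurred in 41.4% of the member clusters, against 39.5% over protein-coding genes, and CAGT in 37.7%, against 34.9%. For CATA the shares were 23.6% and 23.4%, and for GGGG 15.5% and 12.8%. The Wilson intervals of the members contained each of these 4 backgrounds. With RNase T1 0.25/0.25 CATT was found in 18.9% (9.48% to 34.2%) of 37 member clusters, against 39.99% of 11444 clusters of protein-coding genes. CAGT, CATA and GGGG occurred there in 16.2%, 24.3% and 2.70%, against 18.7%, 23.3% and 4.06%. With RNase T1 1/1, which had more clusters, CATT was found in 32.5% of 151 member clusters, against 35.2%. The windows of 30 bases around the mode of the strongest BECN1 cluster held 0 copies of the 4 in both RNase T1 libraries.

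Reads that could belong to another gene were found mainly in GABARAP and, as given above, in ATG9A. All 22 GABARAP clusters also lay on exons of a second protein-coding gene model, ENSG00000262526, which runs through GABARAP, so that the reads cannot be divided between them. Of the 18 RRAGC clusters, 3 with 14 of 236 reads also overlapped a long non-coding RNA (ENSG00000273637). A second exact match of the cluster sequence in the genome was found for 11 of 647 clusters with 101 of 15079 reads, in MAP1LC3B (4 clusters with 43 of 2505 reads), GABARAP (3), ATG12, GABARAPL1, LAMTOR5 and WIPI2 (1 each). The MAP1LC3B paralog MAP1LC3B2 had clusters in 3 libraries.

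Of 45 other genes of autophagy, lysosomes and the mTORC1 pathway, 24 (53.3%) were called in at least 1 library and 9 in all 5. The latter were RHEB, the GTPase that activates mTORC1, with a median of 164 CPM, AKT1S1 (PRAS40), an inhibitor bound to raptor, with 278 CPM, and PRKAA1, the catalytic subunit of AMP-activated kinase, with 97.1 CPM. Further genes were NRBF2 (50.7 CPM), a partner of the Beclin 1 complex, VMP1 (88.9 CPM), a lipid scramblase, and WDR45B (669 CPM), a relative of WIPI2. The last 3 were SNAP29 (115 CPM), which fuses autophagosomes with lysosomes, and the lysosomal membrane proteins LAMP1 (403 CPM) and LAMP2 (151 CPM). In contrast, DEPDC5, NPRL2, RRAGB, STK11, ATG9B, ATG16L2, MAP1LC3C and MITF had no cluster in any of the 5 libraries.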

How the data were processed

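The authors extracted UMIs with UMI-tools 1.1.1, kept reads of 18 to 45 nt with Trimmomatic 0.30, mapped them to GRCh38 with Bowtie 0.12.7 at up to 3 mismatches, removed duplicates and ran PARalyzer on every library by itself. The deposited values used here were counts of reads and of conversion events per cluster. The PARalyzer mode score, deposited as a fraction, was not used. Clusters were assigned to GENCODE release 44 exons with bedtools 2.31.1, and CPM were taken over the summed cluster reads of a library, which are not its sequencing depth. Genes were called by criteria after those of the study, read here as a cluster above 10 CPM of cluster reads and above 0.5 conversion events per read. The study's own base for CPM is not given in the sources used here, so the calls may differ from its target lists. Intervals were Wilson for shares and exact binomial for ratios, at 95%. Computation used Python 3.11.15, pandas 2.3.3, numpy 2.4.6 and scipy 1.17.1, and scripts were tested on simulated data. Values in every library were given for the members with the highest median CPM, those called in all 5 libraries, those split by enzyme and those sharing exons or sequence with other genes. Other pathway genes were named where all 5 libraries called them. Values of the other members, and those of the pathway genes without a cluster, were added after they had been seen. The 41 members and all lists were chosen with earlier results of these data known. Alternatives covered thresholds, features, libraries and pseudocount. Some sequences are not reported here.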

Additional observations from a re-analysis of the deposited data

How the results depend on the processing

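No paired analysis was possible because each condition had 1 library. Of the recomputed values, 51 stayed within the margin set for their kind and 42 moved, and the causes were not tested. With more than 0.75 events per read, 8, 11, 11, 8 and 7 members were called (RNase I 0.05/0.05, 0.1/0.025, 0.05/0.025, RNase T1 1/1, 0.25/0.25). With conversion events over all T positions counted (conversion plus non-conversion events) above 0.5, 0 members were called in each library. With at least 20 reads in place of CPM, the RNase I 0.1/0.025 library had 12 calls, RNase I 0.05/0.025 had 9, RNase T1 1/1 had 11 and RNase T1 0.25/0.25 had 4. Above 20 CPM, 12 were called with RNase I 0.05/0.025 and 11 with RNase T1 1/1. With RNase T1 0.25/0.25, 6 members had a cluster of at least 10 reads. The 3′UTR share of reads was 72.5%, 88.7%, 89.6%, 93.7% and 97.7% when coding sequence was assigned first, and 91.1%, 93.0%, 92.9%, 93.8% and 98.8% with the canonical transcript alone, an alternative chosen after seeing the data. Without the member with the most reads (ATG12, MAP1LC3B, MAP1LC3B and ATG12) it was 93.9%, 95.3%, 95.8% and 93.9% in the first 4 libraries. Coverage was broader than with RNase T1 1/1 in 11 of 20 members with RNase I 0.05/0.025, against 60.0% of protein-coding genes. The median log2 ratio was 0.31 over the 24 members with at least 20 reads, 1.41 for RNase I 0.1/0.025 and 0.90 for RNase I 0.05/0.025 over RNase T1 0.25/0.25. In RNase I 0.05/0.05 clusters above 10 CPM, CATT occurred in 71.2% (protein-coding genes 65.7%), CAGT in 59.3% (60.5%), CATA in 40.7% (43.7%) and GGGG in 23.7% (24.6%). In those of RNase I 0.1/0.025, CATT occurred in 54.5%, CAGT in 48.5% and CATA in 36.4%. The files list clusters only, so absence of a cluster is no measured 0, and RNase T1 0.25/0.25 had 433 member reads, the fewest of the 5 libraries.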
